A study of Homo sapiens with 6 samples.

Results

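The mitochondrial ribosomal protein genes were taken as every row of the 6 gene tables named MRPL or MRPS followed by a number and, for some, a letter from A to C. The rule found 78 of 57820 rows, which carried 76 gene names because MRPL30 and MRPS17 were each listed under 2 identifiers. RNA was sequenced from AID-DIvA cells, a line made from U2OS osteosarcoma cells by integrating a vector for the restriction enzyme AsiSI, fused so that 4-hydroxytamoxifen brings it into the nucleus and auxin degrades it. One group was WT for ARID1A, the DNA-binding subunit of the BAF form of the SWI/SNF chromatin remodeler, and the other was ARID1A-KO, with replicates 3, 4 and 5 in each group (n = 3). Both groups carried the AsiSI construct and both were untreated. The knockout clones were made with Cas9 and guides to the first exon. The study describes its replicates as biological ones from independent experiments. Whether the 3 ARID1A-KO libraries came from 1 clone was not given in the sources used here, so an effect of the knockout cannot be told apart from a difference between the lines.

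Mitochondria keep their own ribosome, which makes the few proteins that mitochondrial DNA still encodes, all of them parts of the respiratory chain and ATP synthase. Its protein subunits are encoded in the nucleus, made in the cytosol and imported. The large subunit forms peptide bonds and holds the exit tunnel, and the small subunit binds the mRNA and reads codons. Some subunits descend from bacterial ribosomal proteins and others were added in mitochondria. A gene name does not always give the subunit, since MRPS18A and MRPS30 encode proteins of the large one. Many of these genes start close to another gene on the opposite strand, with a short stretch of DNA serving both starts.

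The libraries held 54512105 to 84088708 reads assigned to genes on the sense strand, of which members took 0.484% to 0.520%, and this depth and number of libraries limit the precision. ARID1A itself fell from 173 ± 6.67 (SD, n = 3) to 25.9 ± 1.38 CPM (counts relative to the library size, scaled by the trimmed mean of M values), which is -2.74 ± 0.07 on the log2 scale (edgeR quasi-likelihood test, SE, adjusted p = 9.66e-08). Of the markers of the bone tumor lineage, VIM, FN1, SPARC and COL1A1 were abundant, RUNX2 and ALPL were low, COL1A2 was near 0, and SP7, IBSP and BGLAP were near 0 and were not tested. Of markers of other cell types, EPCAM was at 4.30 to 7.26 CPM, CDH1, PTPRC, CD3E and CDH5 were at most 2.47 CPM in any library, and PECAM1 was not analysed here. Several markers differed between the groups, with VIM (0.84, adjusted p = 0.000171) and EPCAM (0.44, adjusted p = 0.0274) higher in ARID1A-KO cells on the log2 scale, and ALPL (-2.45, adjusted p = 0.000148), PTPRC (-2.10, adjusted p = 0.00292), CDH1 (-1.19, adjusted p = 0.00593), SPARC (-0.89, adjusted p = 4.49e-05) and COL1A1 (-0.47, adjusted p = 0.0129) lower. Their part in the results below was not tested. No label or file header gave a batch.

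The stretches between a member and the gene starting next to it on the other strand are shown first, because the largest fall and several of the rises were at such pairs. Each is the GRCh37 sequence between the 2 gene starts of the deposited annotation, outside both genes, on the member's strand. Capitals mark a match on either strand to any of 4 motifs searched by exact letters, namely the NRF1 core GCGCATGC, the ETS core CCGGAAG, the YY1 core AAGATGGC and the E-box CACGTG, which do not contain one another.
MRPL18 with TCP1, chr6:160210782-160210843, plus strand: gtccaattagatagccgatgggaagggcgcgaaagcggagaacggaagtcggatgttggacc
MRPS16 with RP11-152N13.5, chr10:75012452-75012548, minus strand: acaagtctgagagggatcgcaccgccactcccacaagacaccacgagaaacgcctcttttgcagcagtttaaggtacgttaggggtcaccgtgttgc
MRPL52 with SLC7A7, chr14:23299030-23299087, plus strand: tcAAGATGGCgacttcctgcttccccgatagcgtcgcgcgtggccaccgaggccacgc
MRPL47 with NDUFB5, chr3:179322443-179322477, minus strand: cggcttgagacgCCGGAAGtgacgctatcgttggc
MRPL46 with MRPS11, chr15:89010651-89010683, minus strand: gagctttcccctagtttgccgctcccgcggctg

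For called members without such a partner in the deposited annotation, the 100 bases before the RefSeq start (GRCh38.p14) are shown. They are given for the pair with the largest rise and the pair with the largest fall among those in the promoter table. In that annotation SARS2, on the other strand, spans all of MRPS12, and a nearer start of SARS2 was not looked for. No motif of the 4 was matched in these windows, which says only that those letters are not there. The promoters of 300 bases counted below reach further. That of MRPS12 held the ETS core and the YY1 core, and those of MRPS2, MRPL34 and MRPL14 held none of the 4. The windows shown were rich in G and C, at 63.0% to 78.0%.
MRPS2, chr9:135500582-135500681, plus strand: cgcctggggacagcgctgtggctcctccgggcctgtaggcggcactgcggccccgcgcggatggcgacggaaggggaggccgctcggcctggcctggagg
MRPS12, chr19:38930844-38930943, plus strand: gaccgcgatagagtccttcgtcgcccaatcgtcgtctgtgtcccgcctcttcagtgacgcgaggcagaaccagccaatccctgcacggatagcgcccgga
MRPL34, chr19:17292473-17292572, plus strand: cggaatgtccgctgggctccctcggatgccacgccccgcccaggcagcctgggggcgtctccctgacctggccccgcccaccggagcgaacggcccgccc
MRPL14, chr6:44127309-44127408, minus strand: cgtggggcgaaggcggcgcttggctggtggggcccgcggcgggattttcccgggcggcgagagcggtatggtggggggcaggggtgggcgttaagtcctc

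Of the 76 names, 67 had a promoter of 300 bases (250 before the RefSeq start and 50 after it) in the table used. MRPL2, MRPL10, MRPL13, MRPL15, MRPL21, MRPL23, MRPL35, MRPS28 and MRPS36 had none. The ETS core stood in 28 of the 67 (41.8%), against 10.7% of all 27305 promoters, and the YY1 core in 20 (29.9%) against 3.03%. The NRF1 core stood in 6 (8.96%) against 3.27%, at MRPL17, MRPL22, MRPL32, MRPL52, MRPS18B and MRPS18C. The E-box stood in 6 (8.96%) against 7.43%. Among members with a promoter, the ETS core was found at 5 of 7 called higher in ARID1A-KO cells, 5 of 10 called lower and 17 of 49 not called, and the YY1 core at 3, 1 and 16 of them. Promoter GC content was 60.3% at the median of the members and 58.3% over all promoters. These shares describe letters in a window, and their part in the differences between the groups was not tested.

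The levels of the mitochondrial ribosomal protein mRNAs in WT cells spanned a wide range, with nearly the same order in both groups. In TPM, transcripts scaled per length to the same total in each library, the highest level belonged to MRPL51, a mitochondria-specific protein of the large subunit, at 692 ± 28.4 TPM in WT (SD, n = 3) and 674 ± 6.71 TPM in ARID1A-KO cells. It was followed by MRPL14 at 301 ± 22.3 TPM, MRPS23 at 282 ± 10.6 TPM, MRPL18 at 277 ± 24.4 TPM and MRPS34 at 252 ± 19.9 TPM in WT, and neighbours among these 4 differed by no more than about the larger of their SDs. In ARID1A-KO cells MRPS23 stood at 298 ± 9.74 TPM and MRPS34 at 281 ± 46.9 TPM, whereas MRPL14 stood at 201 ± 7.16 TPM and MRPL18 at 147 ± 9.47 TPM. The median over the 78 rows was 77.3 TPM in WT. Across rows, mean log2(TPM + 1) in the groups had a Pearson r of 0.988 and a Spearman rho of 0.972, given as a description because genes are not independent replicates.

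At the bottom of the range, both MRPL30 rows and 1 of the 2 MRPS17 rows (ENSG00000249773.3) were at most 0.255 CPM in every library and were not tested, and 83.7% of the exonic bases of MRPL30 (ENSG00000273155.1) and 89.7% of those of that MRPS17 row were shared with other genes on the same strand in GENCODE release 44 lifted to GRCh37. MRPS24 followed at 4.63 ± 0.50 TPM and MRPL38 at 4.98 ± 0.86 TPM in WT, with 23.3% and 41.1% of their exonic bases shared. In all, 16 rows shared exonic bases with another gene on their strand, of which 4 shared over 50%, the other two being MRPL53 (72.9%, with CCDC142) and MRPL12 (69.5%, with SLC25A10). Values for such rows are uncertain, because reads in shared exons can be left uncounted or split. Pseudogenes of the members, in 66 rows, took 0.114% to 0.154% as many counts as the members.

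The mitochondrial ribosomal protein mRNAs did not move together in ARID1A-KO cells. Of the 75 rows tested, 9 were higher, 10 were lower and 56 did not pass the test at an adjusted p of 0.05, and no called member changed 2-fold. Among all 19599 genes tested, 17.8% were called higher and 18.4% lower, against 12% and 13.3% of the tested members. The median log2 fold change was 0.04 over the members and 0.01 over all genes, with 45 members above 0 and 30 below. More of the members than of all genes stayed near 0, with 54 of 75 (72.0%) within 0.2 on the log2 scale against 40.8% of all genes, which include many of lower counts. The CPM values of the groups did not overlap for 31 members (41.3%), against 49.5% of all genes. The summed level of the members was 5030 ± 180 CPM in WT and 5088 ± 184 CPM in ARID1A-KO cells. In bulk RNA, a change in the number of cells making a transcript and a change in its amount per cell cannot be told apart.

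**Figure D1:**
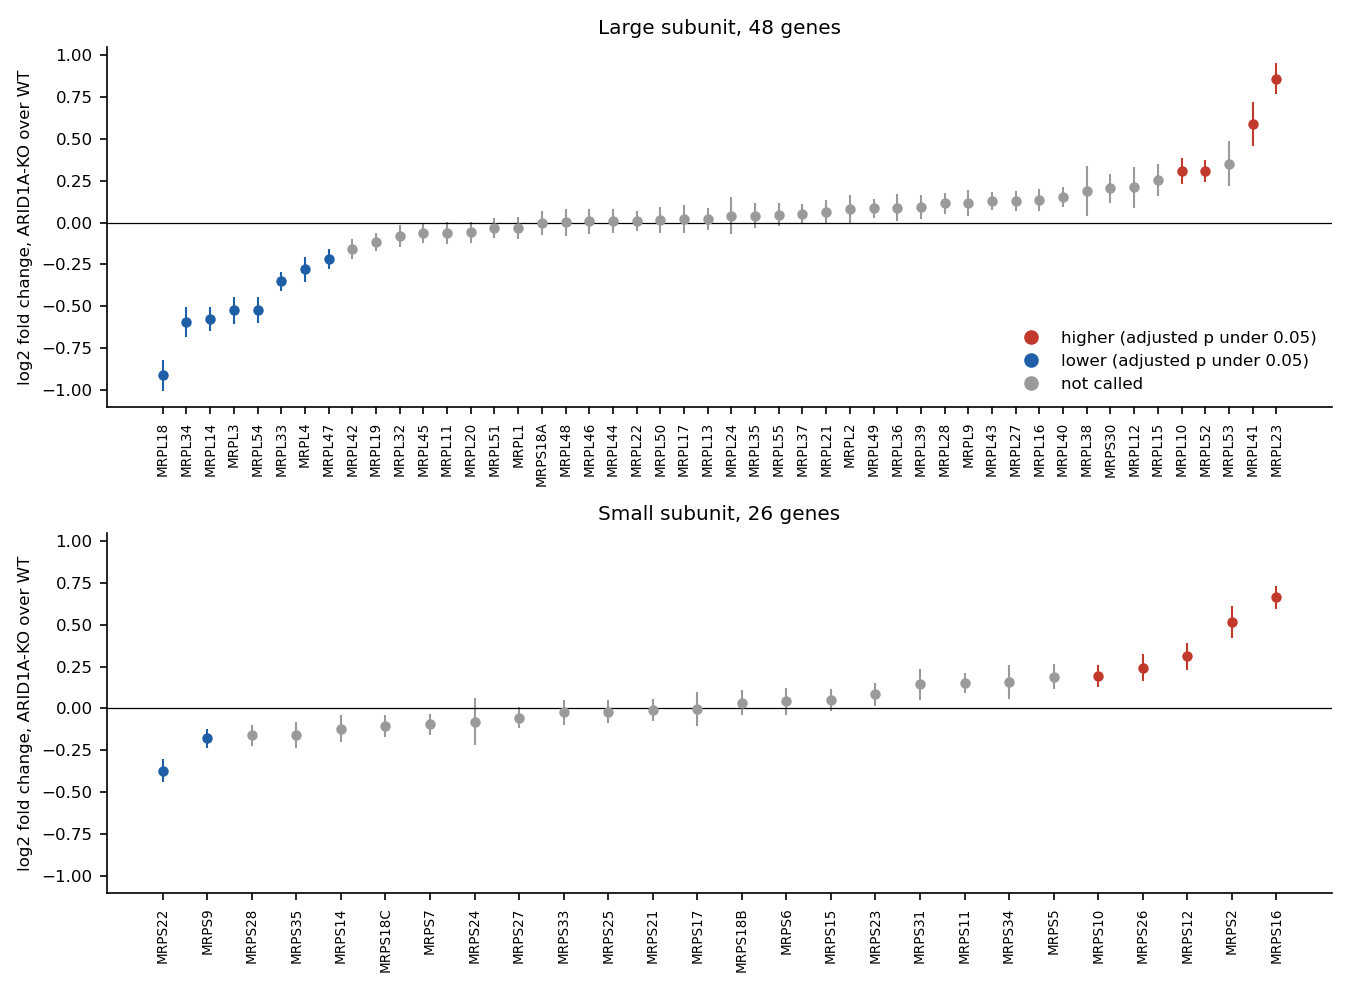
Log2 fold change of each tested member, ARID1A-KO over WT, ranked within the large subunit (48 genes, above) and the small subunit (26 genes, below); points are edgeR estimates, bars are standard errors, and red and blue mark members called higher and lower. Most points sit near 0, with MRPL18 at -0.91 and MRPL23 at 0.86 as the ends of the range.

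The calls were split differently in the 2 subunits, a difference that was not tested. Of the 48 tested genes of the large subunit, 4 were called higher (8.33%) and 8 lower (16.7%). Of the 26 of the small subunit, 5 were higher (19.2%) and 2 lower (7.69%). Among all genes tested, 17.8% were called higher and 18.4% lower. The share of falls in the large subunit and that of rises in the small one were thus near those of all genes. MRPS36, which is also known as a component of the 2-oxoglutarate dehydrogenase complex, was assigned to neither and stood at 0.07 ± 0.08 (log2, SE, adjusted p = 0.563). Among large subunit proteins with a bacterial homologue, 2 of 29 were higher and 7 lower, and among the mitochondria-specific ones 2 of 19 were higher and 1 lower. In the small subunit 4 of 16 with a bacterial homologue were higher and 1 lower, and 1 of 10 mitochondria-specific ones was called in each direction.

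The summed CPM of small subunit members over that of large subunit members, a ratio within each library, was 0.552, 0.555 and 0.549 in WT replicates 3, 4 and 5. In the ARID1A-KO libraries it was 0.610, 0.610 and 0.606. All 3 ARID1A-KO libraries were above all 3 WT libraries, with gaps between replicates far smaller than the gap between the groups. The same held in TPM (0.461 to 0.465 against 0.519 to 0.524). Replicates were not equally unlike across genes. ARID1A-KO replicates 3 and 4 differed least of the pairs within a group, with a chi-square of their counts of 6.94 per gene. The other such pairs were at 16.4 to 29.8, and the cause was not tested. Without the 19 called members the ratio in CPM was 0.531 to 0.537 in WT and 0.527 to 0.536 in ARID1A-KO libraries, and the groups overlapped. The ratio was chosen after the values were seen and the called members were chosen on the same contrast, so both are descriptions without a test.

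**Figure D2:**
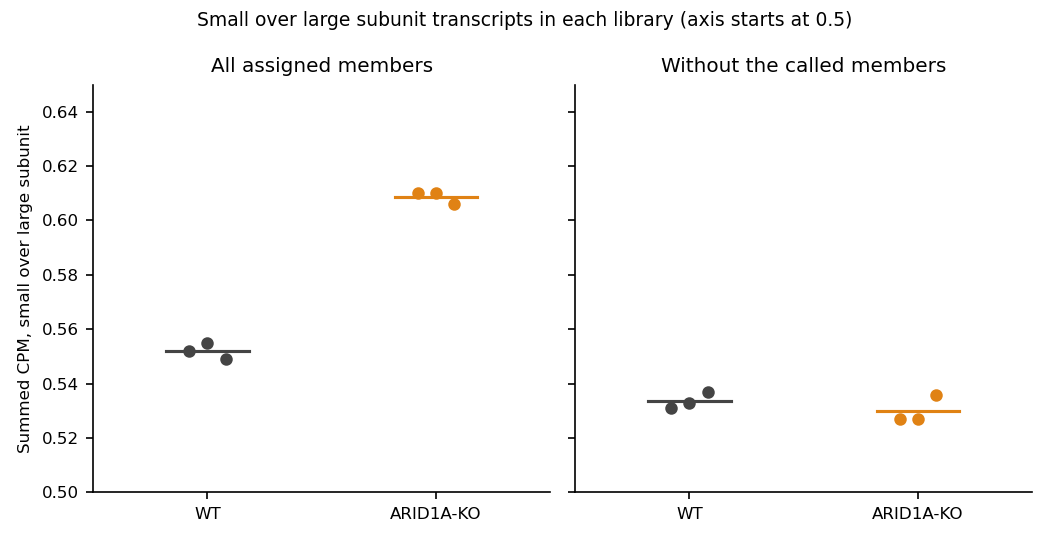
Summed CPM of small subunit members divided by that of large subunit members in each library (points, with the mean of the group as a line), for all assigned members (left) and without the 19 called members (right). With all members the ARID1A-KO libraries sit at 0.606 to 0.610 and the WT libraries at 0.549 to 0.555, and without the called members the groups overlap.

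Among members called higher, the largest rise was in MRPL23 (ENSG00000214026.6, chr11:1968508-2005752 in GRCh37, as for the other genes), a protein at the exit of the nascent chain tunnel. It stood at 23.5, 23.9 and 28.9 CPM in WT and at 43.6, 47.0 and 47.8 CPM in ARID1A-KO libraries. All ARID1A-KO values were above all WT values, and the gene was 1.82-fold higher (log2 0.86 ± 0.09 SE, adjusted p = 0.000115, edgeR quasi-likelihood test, as for all adjusted p-values below). MRPS16 (chr10:75006510-75012451), a small subunit protein with a bacterial homologue, stood at 109, 123 and 114 CPM in WT and at 188, 188 and 173 CPM in ARID1A-KO libraries. The ARID1A-KO values were close to one another and far above WT, at 1.59-fold (log2 0.66 ± 0.07, adjusted p = 9.6e-05).

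MRPL41 and MRPS2, both near the end of chromosome 9, were both higher. MRPL41 (chr9:140445651-140447007), a mitochondria-specific protein of the large subunit, stood at 32.9, 32.8 and 40.8 CPM in WT and at 44.1, 53.7 and 62.3 CPM in ARID1A-KO libraries, a 1.51-fold rise (log2 0.59 ± 0.13, adjusted p = 0.00681). The replicates of this gene were spread widely, and its highest WT value was close to its lowest ARID1A-KO value. MRPS2 (chr9:138391830-138396519), a small subunit protein, stood at 89.4, 101 and 96.7 CPM in WT and at 144, 151 and 116 CPM in ARID1A-KO libraries, a 1.43-fold rise (log2 0.52 ± 0.10, adjusted p = 0.00304). With an offset for exonic GC content, MRPS2 was at 0.31 with an adjusted p of 0.0818, and MRPL41 at 0.23 with an adjusted p of 0.0361.

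The remaining 5 rises were at most 1.24-fold. MRPS12, the protein of the decoding site whose bacterial homologue is known for mutations that give streptomycin resistance, MRPL52 and MRPL10, which anchors the stalk that recruits translation factors, were each at 0.31 on the log2 scale (SE 0.07 to 0.08, adjusted p 0.00527 to 0.0159). MRPS26, a mitochondria-specific protein, was at 25.5, 26.1 and 25.8 CPM in WT and at 27.6, 30.5 and 33.6 CPM in ARID1A-KO libraries (log2 0.24 ± 0.08, adjusted p = 0.0448). MRPS10 was at 77.9, 81.2 and 76.5 CPM in WT and at 94.4, 91.1 and 83.8 CPM in ARID1A-KO libraries (log2 0.19 ± 0.06, adjusted p = 0.0425). It was the only member whose call differed between the tests, with an adjusted p of 0.0503 from DESeq2.

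Among members called lower, the largest fall was in MRPL18 (ENSG00000112110.5, chr6:160210844-160219468), a large subunit protein also known to take part in the import of cytosolic 5S rRNA. It stood at 104, 126 and 119 CPM in WT and at 66.7, 63.4 and 55.1 CPM in ARID1A-KO libraries. The groups were far apart, with a 1.88-fold fall (log2 -0.91 ± 0.09, adjusted p = 9.59e-05). MRPL34 (chr19:17403418-17417652), a small protein with a bacterial homologue, stood at 41.4, 41.2 and 45.6 CPM in WT and at 24.9, 29.5 and 30.5 CPM in ARID1A-KO libraries, a 1.51-fold fall (log2 -0.60 ± 0.09, adjusted p = 0.000802).

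MRPL14 (chr6:44081194-44095194), which lies on the face of the large subunit that meets the small one, stood at 80.5, 87.5 and 95.2 CPM in WT and at 58.5, 60.1 and 58.0 CPM in ARID1A-KO libraries. The ARID1A-KO values were nearly identical and all below WT, a 1.49-fold fall (log2 -0.57 ± 0.07, adjusted p = 0.000279). MRPL3 (chr3:131181056-131221827), a protein close to the peptidyl transferase center, stood at 156, 168 and 162 CPM in WT and at 121, 117 and 99.5 CPM in ARID1A-KO libraries, a 1.44-fold fall (log2 -0.52 ± 0.08, adjusted p = 0.000939). MRPL54 (chr19:3762662-3768573), the 1 called lower among mitochondria-specific proteins of the large subunit, stood at 43.1, 39.5 and 45.1 CPM in WT and at 28.3, 28.8 and 31.9 CPM in ARID1A-KO libraries, likewise a 1.44-fold fall (log2 -0.52 ± 0.08, adjusted p = 0.000829).

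The remaining 5 falls were smaller. MRPS22, a mitochondria-specific protein of the small subunit, was at 49.5, 52.1 and 46.0 CPM in WT and at 39.8, 37.3 and 36.9 CPM in ARID1A-KO libraries (log2 -0.37 ± 0.07, adjusted p = 0.00286). MRPL33 was at 70.1, 67.2 and 65.2 CPM in WT and at 54.6, 52.1 and 51.9 CPM in ARID1A-KO libraries (log2 -0.35 ± 0.06, adjusted p = 0.00163), and 21.2% of its exonic bases were shared with BRE. MRPL4, a protein lining the exit tunnel, was at -0.28 ± 0.08 (adjusted p = 0.0168), MRPL47 at -0.22 ± 0.06 (adjusted p = 0.0182) and MRPS9 at -0.18 ± 0.06 (adjusted p = 0.0346). The groups did not overlap for any of the 19 called members, a count that the test itself favors.

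**Figure D3:**
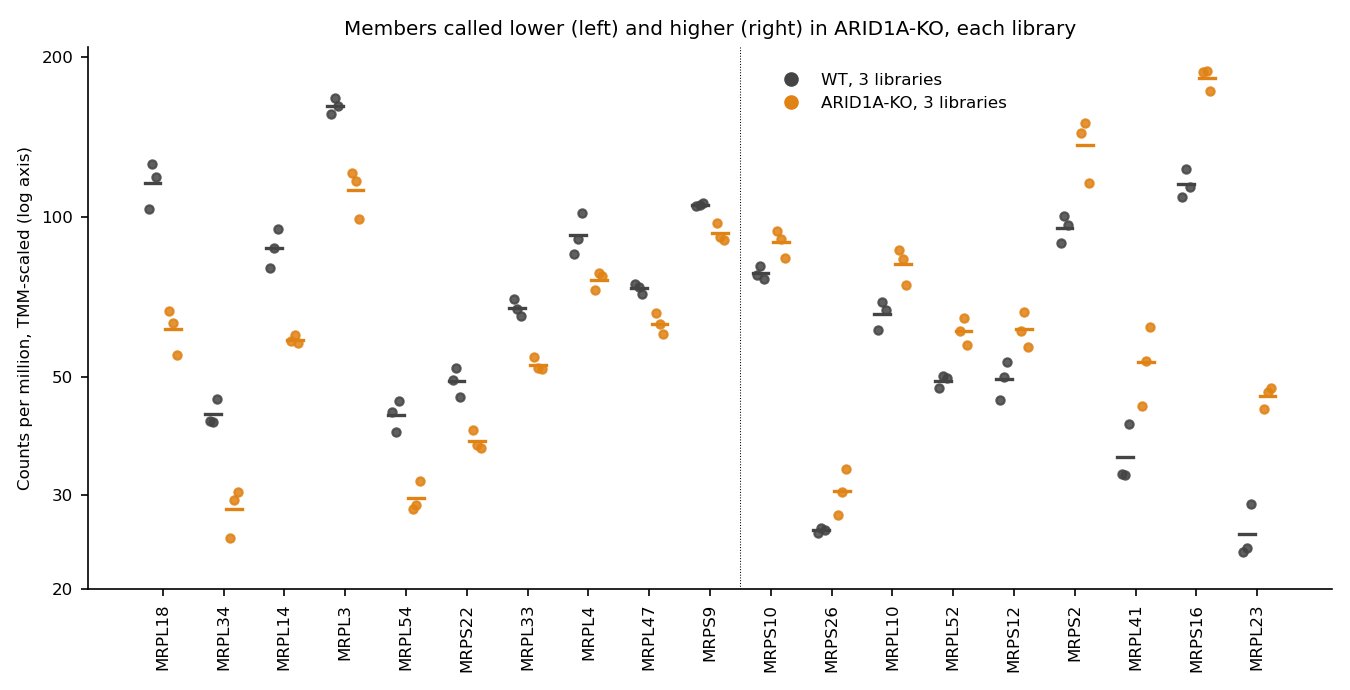
CPM on a log axis of the 19 called members in each library (points, with the group mean as a line), members called lower on the left and higher on the right. In each of the 19 genes the 3 ARID1A-KO libraries (orange) lie on one side of the 3 WT libraries (gray).

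Replicates of a member differed by a coefficient of variation of 5.81% at the median in WT (range 0.502% to 17.1%) and 5.70% in ARID1A-KO libraries (range 0.779% to 17.03%). Of the 19 called members, 12 kept their call whichever library was left out. Leaving out WT replicate 3 lowered the count of rises from 9 to 5, ending the calls of MRPL10 (adjusted p = 0.0507), MRPS12 (adjusted p = 0.0686), MRPS10 (adjusted p = 0.115) and MRPS26 (adjusted p = 0.12). Without ARID1A-KO replicate 4 the count was 6, with MRPS12 (adjusted p = 0.0749), MRPS10 (adjusted p = 0.139) and MRPS26 (adjusted p = 0.116) not called, nor MRPL47 (adjusted p = 0.0752) and MRPS9 (adjusted p = 0.144). MRPL4 lost its call without WT replicate 5 (adjusted p = 0.0505) or ARID1A-KO replicate 3 (adjusted p = 0.0695). MRPS10, MRPS26 and MRPS9 each lost theirs in 5 of the 6 fits that left out a library.

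The 3 paralogs of the S18 family, of which MRPS18A encodes a large subunit protein, stayed close to their WT levels. MRPS18B was the highest at 190 ± 13.3 TPM in WT and 194 ± 2.65 TPM in ARID1A-KO cells, followed by MRPS18A at 127 ± 6.83 and 126 ± 2.65 TPM and MRPS18C at 28.4 ± 1.64 and 26.3 ± 1.14 TPM. The log2 fold changes were 0.04 ± 0.07 (MRPS18B, adjusted p = 0.743), -0.01 ± 0.07 (MRPS18A, adjusted p = 0.966) and -0.11 ± 0.06 (MRPS18C, adjusted p = 0.229). The signs of all 3 turned under at least 1 other setting, so no direction is given. MRPL53 and MRPL12, whose exons are largely shared, were at 0.35 ± 0.13 (adjusted p = 0.0661) and 0.21 ± 0.12 (adjusted p = 0.215).

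The genes around a member were examined because members lie on 21 chromosomes and several calls clustered. All 4 tested members on chromosome 3 were below 0, with 3 of them (MRPL3, MRPS22 and MRPL47) called lower, and 34.7% of all 1088 tested genes of that chromosome were called lower, with a median log2 fold change of -0.17. On chromosome 10 both members were above 0 and MRPS16 was called higher, where 35.7% of 784 genes were called higher. On chromosome 19, 3 of 4 members (MRPL34, MRPL54 and MRPL4) were called lower and MRPS12 was called higher, while 20.2% of genes were called lower and 22.2% higher. On chromosome 9, MRPS2 and MRPL41 were both higher, while 16.2% of genes were called higher and 21.0% lower.

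The median log2 fold change of the other tested genes within 5 Mb, 22 to 259 genes per member, was -1.05 around MRPL18 (40 genes), -0.49 around MRPS22, -0.44 around MRPL3, -0.36 around MRPL34, -0.27 around MRPL4 and -0.25 around MRPL47. It was 0.39 around MRPS16, 0.31 around MRPL52 and 0.27 around MRPL23. Of the 19 called members, 18 had the sign of their neighbours, and MRPL33 was the exception. The neighbours' median had that sign and was past 0.2 in size for only 9 of them. It was near 0 for others, such as MRPS10 (0.003), MRPL54 (-0.004) and MRPL14 (-0.01), where its sign means little. The share of all called genes with the sign of their neighbours was not computed. Across the 75 members, the log2 fold change and the neighbours' median had a Pearson r of 0.703 and a Spearman rho of 0.505. Over the 74 without MRPL18 the values were 0.631 and 0.485, and over 19590 genes 0.253 and 0.312. Those 19590 include many genes of lower counts, and no set matched for level was compared. The correlations are descriptions over genes that share libraries and, in part, neighbours. With the neighbours' median taken off, MRPL18 was at 0.14 (adjusted p = 0.281), MRPS22 at 0.11 (adjusted p = 0.243), MRPL3 at -0.09 (adjusted p = 0.44), MRPL34 at -0.24 (adjusted p = 0.0703), MRPL52 at -0.001 (adjusted p = 0.993), MRPL47 at 0.03 (adjusted p = 0.704) and MRPL4 at -0.01 (adjusted p = 0.941).

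Exonic GC content also moved with the differences, with a Spearman rho of 0.347 over the 73 members that had a value. With an offset for it, 14 of the 19 calls were kept, and MRPS2, MRPS12 (adjusted p = 0.0705), MRPS26 (adjusted p = 0.698), MRPL47 (adjusted p = 0.369) and MRPS9 (adjusted p = 0.542) were not called. Other members were newly called, all of them higher, so that 12 members were higher and 8 lower under that offset.

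Other members were still called with the neighbours' median taken off, some of them in regions that had moved the same way. MRPL14, MRPL54 and MRPL33 had neighbours' medians of -0.01, -0.004 and 0.01, and with these taken off stayed at -0.56 (adjusted p = 0.000433), -0.52 (adjusted p = 0.00113) and -0.36 (adjusted p = 0.0019). MRPS2 stayed at 0.43 (adjusted p = 0.00883) and MRPL41 at 0.50 (adjusted p = 0.018). MRPL23 went from 0.86 to 0.59 (adjusted p = 0.00123), and MRPS16 went from 0.66 to 0.27 (adjusted p = 0.0147), less than its neighbours' median of 0.39, and both were still called. In all, 9 of the 19 called members were called after the neighbours' median was taken off. Other members were newly called, so that 9 members were higher and 8 lower in that fit, against 9 and 10. MRPL43, chosen here after its values were seen, lay in the region with the highest neighbours' median, 0.40, and was itself at 0.13 (adjusted p = 0.104). With that median taken off it was at -0.27 (adjusted p = 0.00565) and was 1 of the newly called.

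**Figure D4:**
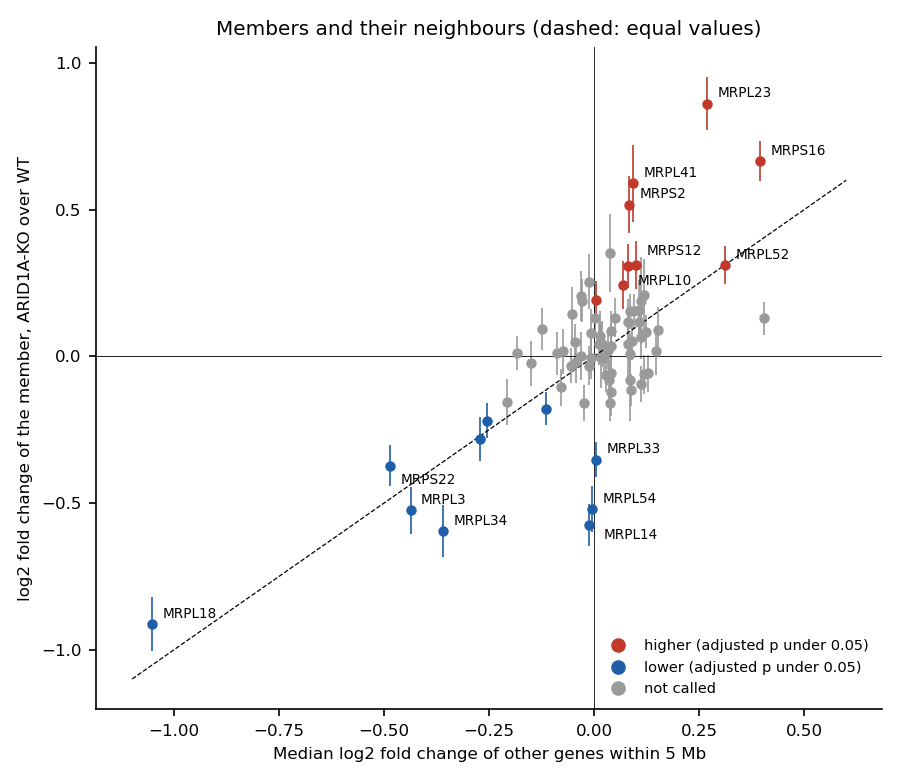
Log2 fold change of each tested member (vertical, with standard error) against the median log2 fold change of the other tested genes within 5 Mb (horizontal); the dashed line marks equal values. MRPL18, MRPL3, MRPS22 and MRPL34 lie near the dashed line at the lower left, whereas MRPL14, MRPL54 and MRPL33 lie below 0 with neighbours at about 0.

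At a closer range, 19 members had a tested gene on the opposite strand whose start lay within 1000 bp upstream of their own. Starts were those of the deposited annotation, and there were 18 pairs with a median distance of 58 bp. MRPL18 fell together with TCP1, a subunit of the cytosolic chaperonin that folds actin and tubulin, 63 bp away, which went from 857 to 405 CPM on average (log2 -1.08 ± 0.09, adjusted p = 2.64e-05). MRPL47 fell together with NDUFB5, a subunit of respiratory complex I, 36 bp away (-0.25 ± 0.08, adjusted p = 0.0296). MRPL54 fell together with APBA3, 965 bp away (-0.30 ± 0.10, adjusted p = 0.0412).

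On the side of the rises, MRPS16 rose together with RP11-152N13.5, 98 bp away (0.63 ± 0.11, adjusted p = 0.00184), and MRPL41 together with PNPLA7, 665 bp away (0.69 ± 0.22, adjusted p = 0.0361), which was below 1 CPM on average in both groups. MRPL10 rose together with LRRC46, 93 bp away, at 0.811 CPM in WT and 2.09 CPM in ARID1A-KO cells (1.37 ± 0.18, adjusted p = 0.000416). MRPL52 rose while SLC7A7, an amino acid transporter subunit, 59 bp away, was at -0.24 ± 0.18 (adjusted p = 0.345). MRPL46 and MRPS11, members of different subunits that start 34 bp apart, were at 0.01 ± 0.07 (adjusted p = 0.951) and 0.15 ± 0.06 (adjusted p = 0.0729).

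Of the 7 pairs with a called member, the partner was called in the same direction in 6 and in the opposite direction in none, and the exception was SLC7A7, whose value did not pass the test. Over all such pairs, 38.4% of the 750 called genes had a partner called in the same direction and 6.13% one called in the opposite direction. Over the 18 pairs, Pearson's r was 0.730 and Spearman's rho 0.662 (0.595 and 0.598 without the MRPL18 pair). Over all 1140 such pairs of tested genes they were 0.374 and 0.347. Pairs matched to those of the members for level were not compared, neither for these values nor for the shares called. The share of pairs with the same sign, 66.7%, was near that of all pairs, 63.0%. In 3 of the 6 pairs called together the neighbours' median was near 0 (-0.004 for MRPL54, 0.08 for MRPL10 and 0.09 for MRPL41), and in the other three the region had moved the same way as the pair.

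**Figure D5:**
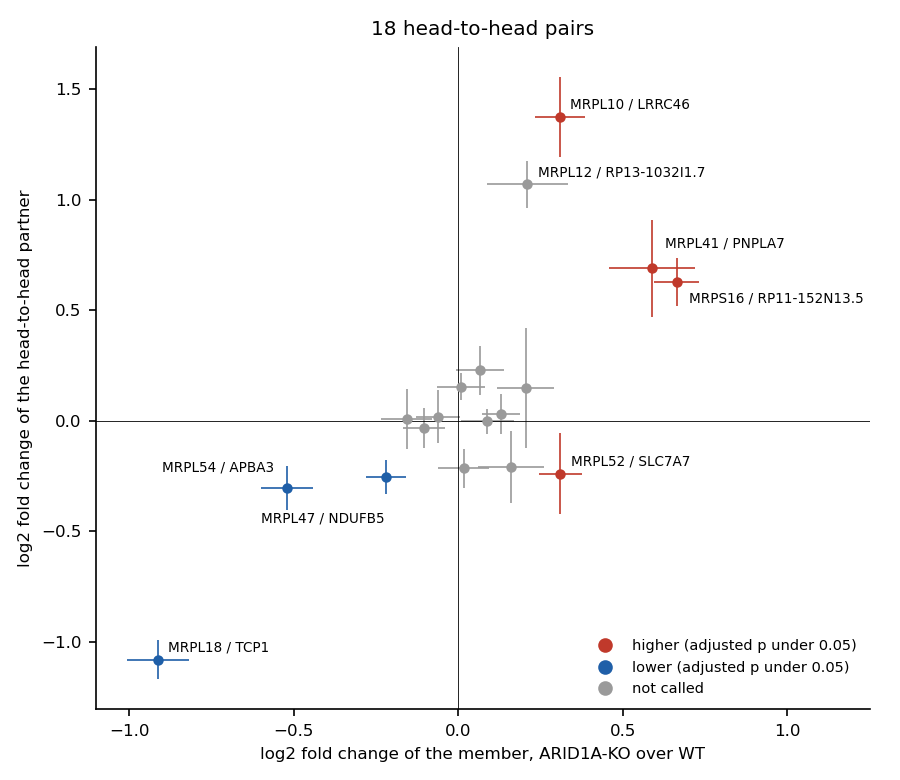
Log2 fold change of each member (horizontal) and of the gene that starts head to head with it within 1000 bp (vertical), with standard errors, for 18 pairs colored by the call of the member. MRPL18 and TCP1 lie together at the lower left, 3 pairs with both genes called higher lie at the upper right, and MRPL52 is the only called member opposite in sign to its partner.

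The other genes of mitochondrial translation were followed in lists chosen with earlier results of these data known. Of 83 tested, 15 were higher (18.1%) and 7 lower (8.43%), against 17.8% and 18.4% of all genes, so that the share of rises was near that of all genes. The median log2 fold change was 0.09. Among 7 ribosome subunits under other names, 2 were higher, namely CHCHD1, a small subunit protein, at 36.5 to 37.3 CPM in WT and 48.0 to 49.1 CPM in ARID1A-KO libraries (0.39 ± 0.06, adjusted p = 0.000687), and AURKAIP1 (0.29 ± 0.09, adjusted p = 0.0337). CHCHD1 lies in the same region of chromosome 10 as MRPS16, with a neighbours' median of 0.40, and was at -0.003 with that taken off.

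Of 26 genes for assembly of the mitochondrial ribosome, 6 were higher (23.1%) and 2 lower (7.69%), against 17.8% and 18.4% of all genes. DDX28, an RNA helicase of large subunit assembly, was at 0.65 ± 0.08 (adjusted p = 0.000386), MRM1, an rRNA methyltransferase, at 0.42 ± 0.10 (adjusted p = 0.0081) and NSUN4, which acts in rRNA methylation and the joining of the subunits, at 0.40 ± 0.09 (adjusted p = 0.00798). MPV17L2 was at -0.68 ± 0.09 (adjusted p = 0.000406) and MALSU1, an anti-association factor of the large subunit, at -0.19 ± 0.06 (adjusted p = 0.0409). Of 16 translation factors, 12.5% were higher and 6.25% lower. MTFMT, which formylates the initiator tRNA, was higher (0.30 ± 0.07, adjusted p = 0.00909), as was OXA1L, the insertase that receives nascent chains (0.27 ± 0.05, adjusted p = 0.00442). GFM1, an elongation factor, was lower (-0.52 ± 0.08, adjusted p = 0.000775). GFM1, like MRPL3 and MRPS22, is on chromosome 3, with a neighbours' median of -0.40.

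Of 20 genes for charging of mitochondrial tRNAs, 1 was higher (EARS2, 0.25 ± 0.08, adjusted p = 0.0324) and 4 were lower. The shares were 5% and 20%, against 17.8% and 18.4% of all genes. CARS2, the cysteinyl-tRNA synthetase, fell from 45.0, 37.9 and 46.5 CPM in WT to 16.3, 19.0 and 20.7 CPM in ARID1A-KO libraries, the only gene of these lists called at 2-fold or more (-1.21 ± 0.11, adjusted p = 4.72e-05). PET112, also known as GATB, a subunit of the glutamyl-tRNA amidotransferase, was at -0.81 ± 0.11 (adjusted p = 0.000558) and at 0.14 with its neighbours' median taken off, and WARS2 was at -0.47 ± 0.07 (adjusted p = 0.00084).

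Of 5 genes for mitochondrial transcription, 2 were higher (40% of this short list, against 17.8% of all genes). POLRMT, the mitochondrial RNA polymerase, was at 88.5, 117 and 108 CPM in WT and at 188, 214 and 179 CPM in ARID1A-KO libraries (0.89 ± 0.11, adjusted p = 0.000253), and TFAM, which packages mitochondrial DNA and starts its transcription, was at 0.31 ± 0.07 (adjusted p = 0.00591). Of 9 regulators of nuclear genes for mitochondria, the coactivator PPRC1 (0.64 ± 0.07, adjusted p = 0.000167) and the receptor ESRRA (0.37 ± 0.09, adjusted p = 0.0121) were higher. That was 22.2% of the 9, near the share of all genes.

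Several of these calls were lost when the neighbours' median was taken off. DDX28, whose neighbours' median was 0.55, was then at 0.10 (adjusted p = 0.416), TFAM at 0.12 (adjusted p = 0.195), GFM1 at -0.12 (adjusted p = 0.253), OXA1L at -0.04 (adjusted p = 0.58), AURKAIP1 at 0.16 (adjusted p = 0.207), MALSU1 at -0.12 (adjusted p = 0.175), EARS2 at 0.19 (adjusted p = 0.0929) and ESRRA at 0.26 (adjusted p = 0.0647). With the offset for GC content, ESRRA was at 0.11 (adjusted p = 0.496), MALSU1 at -0.06 (adjusted p = 0.462) and AURKAIP1 at -0.09 (adjusted p = 0.274).

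Calls of AURKAIP1, MALSU1, MTFMT, EARS2 and ESRRA were each lost when 1 library was left out, in 1 to 4 of the 6 such fits. Without WT replicate 3 the adjusted p was 0.111 for AURKAIP1, 0.106 for MALSU1 and 0.12 for EARS2. Without WT replicate 5 it was 0.096 for MALSU1 and 0.0832 for EARS2, and without WT replicate 4 it was 0.086 for AURKAIP1. Without ARID1A-KO replicate 3 it was 0.121 for MALSU1 and 0.115 for EARS2. Without ARID1A-KO replicate 4 it was 0.0997 for AURKAIP1, 0.161 for MALSU1, 0.0521 for MTFMT, 0.113 for EARS2 and 0.055 for ESRRA, and without ARID1A-KO replicate 5 it was 0.0946 for AURKAIP1.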

How the data were processed

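Gene tables of 6 untreated AID-DIvA libraries (3 WT and 3 ARID1A-KO, grouped by the genotype in the labels) were used. The authors aligned paired reads to GRCh37 with STAR and deposited featureCounts read counts per gene, without strand and for each strand, beside the TPM that the authors computed. The count assigned to the reverse strand was used for tests and the deposited TPM column whose total per library is that of the unit for levels.

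Here, R 4.3.3 and edgeR 4.0.16 were used: filterByExpr kept 19599 of 57820 genes, counts were scaled by TMM, and a quasi-likelihood test compared ARID1A-KO with WT, with Benjamini-Hochberg adjustment over all genes tested and a threshold of 0.05. An SE is the size of the log2 fold change over the square root of F. The code was first tested on simulated counts. The study's own test, DESeq2 (1.42.0), was an alternative, as were other filters, scalings, offsets, a replicate block and leaving out each library. Exonic GC content and shared exons came from GENCODE release 44 lifted to GRCh37, promoters from RefSeq (GRCh38.p14). The members and gene lists were chosen with earlier results of these data known. Values are given for the called members (9 higher, 10 lower), the 5 highest and 5 lowest in WT TPM, the S18 paralogs, members not tested, and up to 3 called genes per direction of each other list; members sharing exons are given by count, with those sharing over 50% named. The head-to-head pairs, MRPL43, MRPL46, MRPS11 and MRPS36, PDF, the subunit ratio, the mitochondrial transcripts and the cytosolic ribosome and complex I lists were chosen after their values were seen. The sequence of 1 head-to-head interval is not reported here.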

Additional observations from a re-analysis of the deposited data

How the results depend on the processing

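ARID1A fell under each alternative, by 2.62 to 2.80 on the log2 scale. Over all alternatives members called higher numbered 5 to 12 and called lower 7 to 11, against 9 and 10. At an adjusted p under 0.01, 5 members were higher, and 14 other mitochondrial translation genes were called against 22. Leaving out 1 library gave 5 to 12 members higher (5 without WT replicate 3), 8 to 9 lower and 16 to 25 other genes called, with ARID1A at -2.78 to -2.72. Deviations of same-numbered libraries correlated at -0.177, 0.268 and 0.180, and those of differently numbered ones at -0.420 to 0.295. With 3 libraries per group these values cannot decide whether the replicate numbers pair the samples. With a replicate block 11 members were higher and 10 lower, all 19 called members among them, 25 other genes were called and ARID1A was at -2.74. Of the 19 called members, 6 kept their call in all 16 alternatives.

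Signs turned mostly at values near 0. With the neighbours' median taken off, MRPL18 was at 0.14, MRPS22 at 0.11, MRPL47 at 0.034, MRPL52 at -0.0010, MRPL51 at 0.023, MRPL46 at -0.078, MRPS18A at 0.0021, MRPS18B at -0.0045, CHCHD1 at -0.0026, OXA1L at -0.044 and PET112 at 0.14, which follows from taking off a median of their own sign. With the GC offset, MRPS18C was at 0.036, MRPS34 at -0.13, MRPL12 at -0.082 and AURKAIP1 at -0.086, and the cause was not tested. With the length offset MRPS18B was at -0.031, and with unstranded counts MRPS18A was at 0.0069. Leaving out 1 library gave MRPS18B from -0.039 to 0.071, MRPS18A from -0.066 to 0.033, MRPL46 from -0.018 to 0.022 and MRPS17 (ENSG00000239789.1) from -0.069 to 0.076.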

Other observations

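Transcripts of the mitochondrial genome, whose translation is the task of this ribosome, were looked at after the values of the nuclear genes were known. Of the 13 mRNAs, MT-ND4 (0.28 ± 0.09 on the log2 scale, SE, adjusted p = 0.0418, edgeR quasi-likelihood test) and MT-ND3 (0.23 ± 0.08, adjusted p = 0.0453) were called higher in ARID1A-KO cells and none was called lower, and each of these calls was lost in 4 of the 6 fits that left out a library. The mRNAs called higher were 15.4% of the 13, near the 17.8% of all genes. Both ribosomal RNAs were called lower. MT-RNR1, the RNA of the small subunit, was at 562, 525 and 556 CPM in WT and at 391, 370 and 372 CPM in ARID1A-KO libraries (-0.54 ± 0.06, adjusted p = 0.000171). MT-RNR2, the RNA of the large subunit, was at -0.28 ± 0.08 (adjusted p = 0.0289), a call lost without WT replicate 3, WT replicate 4 or ARID1A-KO replicate 4 (adjusted p 0.0706 to 0.112). The labels give the molecule as polyA RNA and the library kit as one for total RNA, so how these RNAs were selected for is unclear and the levels of MT-RNR1 and MT-RNR2 cannot be read as amounts of ribosome.

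For scale, of 83 tested genes of the cytosolic ribosome 5 were called higher (6.02%) and 9 lower (10.8%), with a median log2 fold change of -0.05. Of 37 tested genes for complex I subunits 5 were higher (13.5%) and 7 lower (18.9%), with a median of -0.004. Among all genes tested, 17.8% were called higher and 18.4% lower. PDF, the mitochondrial peptide deformylase, was at 2.59, 4.04 and 10.3 CPM in ARID1A-KO replicates 3, 4 and 5 against at most 2.85 CPM in WT, so that 1 library set its log2 fold change of 1.23, which was not called.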
